A study of Mus musculus with 5 samples.

Results

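The costimulatory receptor genes *Cd27*, *Cd28*, *Icos*, *Tnfrsf4*, *Tnfrsf9*, *Tnfrsf18*, *Tnfrsf1b* and *Cd226* were taken by name, 8 of the 21938 protein-coding genes of the mouse assembly GRCm38. Peaks of acetylated histone were assigned to a gene where they touched its body or the 10 kb on either side of it, and all 8 genes had at least 1 peak in the series. The series held 5 ChIP-seq libraries of memory-type CD8+ T cells (TM), 2 from wildtype mice (WT 1 and WT 2) and 3 from mice labelled PDH_Mutant, here TPdh-/- (TPdh 1, TPdh 2 and TPdh 3). TPdh-/- mice carried a floxed *Pdha1*, which encodes the E1 alpha subunit of pyruvate dehydrogenase, and a Cre recombinase driven by the *Cd4* promoter, so that the enzyme was lost from T cells. By the methods of the study, OT-I T cells of mice of 8 to 12 weeks were activated for 3 days with OVA peptide and then cultured for 4 days with IL-15 at 10 ng/mL, and the study describes the cells of its genomic work as splenic T cells made into TM cells by this kind of culture. The study says that its measurements came from discrete samples and counts more ChIP-seq samples per genotype than are analysed here, but which mice or cultures these libraries came from, and whether the WT mice carried Cre, is not given in the sources used here. Any p-value therefore measures only the spread between these libraries, which may be technical.

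Costimulatory receptors deliver the second signal that a T cell needs beside its antigen receptor to divide, survive and form memory. CD28, ICOS and CD226 belong to the immunoglobulin superfamily, and CD27, OX40 (*Tnfrsf4*), 4-1BB (*Tnfrsf9*), GITR (*Tnfrsf18*) and TNFR2 (*Tnfrsf1b*) belong to the tumour necrosis factor receptor superfamily and signal through TRAF adaptors. Acetylation of histone tails marks active promoters and enhancers, and the acetyl group comes from acetyl-CoA, to which pyruvate dehydrogenase contributes through citrate. The sample labels note acetyl K18 in one field and antibodies to acetylated histone in another, and the methods of the study describe an antibody to acetyl-lysine of histones, so the mark is called histone acetylation here.

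A deposited peak list gives for each peak its place, its fold over background and its −log10 q, and no read counts, so the depth behind each value is unknown. The lists differed in length within both genotypes: WT 1 held 15962 peaks and WT 2 held 8859, and the TPdh-/- libraries held 4920, 5419 and 9418. Of 8 T cell markers, 8 and 7 had a peak in the WT libraries and 2, 7 and 6 in the TPdh-/- libraries. Of the CD8 genes among them, *Cd8b1* had a peak in every library and *Cd8a* in WT 1 alone. Of 3 markers of the CD4 lineage, 3 and 2 had a peak in WT and 0, 0 and 1 in TPdh-/-. *Cd4* itself had a peak in WT 1, WT 2 and TPdh 3. The part of these differences between libraries in the results was not tested. Of 6 B cell markers 3, 1, 1, 1 and 2 had a peak in the same order of libraries, with *Ms4a1*, *Cd79b* and *Blnk* at 0 in all, and of 6 myeloid markers 3, 3, 3, 2 and 3, with *Lyz2*, *Csf1r* and *Adgre1* at 0 in all. Of 3 erythroid markers, 1 had a peak in WT 1 alone. These windows also take in neighbours, and the strongest peak of *Cd79a* lay nearest to the start of *Arhgef1* and that of *Cd68* at the start of *Eif4a1*.

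Acetylation peaks were found in the windows of all 8 receptor genes in both WT libraries and in TPdh 3, and of fewer of them in the other TPdh-/- libraries. In WT 1, 8 of 8 genes had a peak, beside 54% of all protein-coding genes, and in WT 2 the count was 8 of 8 beside 36.4%. In TPdh 1 the count was 4 of 8 beside 23.2%, in TPdh 2 it was 3 of 8 beside 24.7%, and in TPdh 3 it was 8 of 8 beside 39.2%. The counts therefore overlapped between the genotypes, and the libraries with fewer receptor genes were those with the shorter lists. *Tnfrsf4*, *Tnfrsf18* and *Tnfrsf1b* had a peak in every library, a pattern of 17.1% of protein-coding genes. In TPdh 1 and TPdh 2, *Tnfrsf4* counted only through a peak between the genes that also counted for *Tnfrsf18*. With 3 kb flanks *Tnfrsf4* had no peak in any library, and *Tnfrsf18* had none in TPdh 1 and TPdh 2. *Cd27*, *Cd28*, *Cd226* and *Tnfrsf9* had one in both WT libraries and TPdh 3 and in neither TPdh 1 nor TPdh 2, a pattern of 6.43%. *Icos* was without a peak in TPdh 2 alone. The windows of the receptor genes had a median length of 47.0 kb against 37.4 kb for all protein-coding genes. These windows also take in peaks that lie nearer to other genes. With only peaks whose nearest coding start site was that of the gene, the counts were 7 and 6 in WT and 3, 2 and 6 in TPdh-/-. The share of all protein-coding genes is not given for that count.

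**Figure D1:**
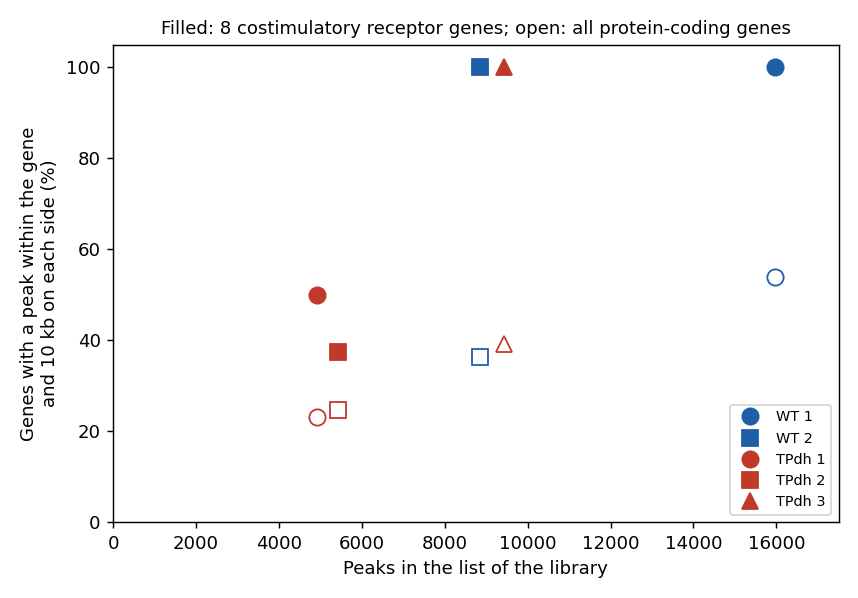
Share of genes with a peak in their window (y axis, %) against the number of peaks in the list of each library (x axis), for the 8 receptor genes (filled) and all 21938 protein-coding genes (open). Both shares were lowest in the 2 shortest lists, TPdh 1 and TPdh 2, and TPdh 3 lay beside WT 2.

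The receptor genes held 54 peaks in all, 19 in WT 1, 13 in WT 2, 4 in TPdh 1, 5 in TPdh 2 and 13 in TPdh 3. The peaks were between 570 and 2353 bp wide, with folds between 1.64 and 2.74 and a median fold of 2.22. Joined where they shared at least 1 bp, they made 19 regions, and each of the 19 contained a peak of WT 1. Of these, 4 regions had peaks in WT 1, WT 2 and TPdh 3, 3 in all 5 libraries, and 3 in WT 1 alone. Over all 18410 joined regions of the series, WT 1 alone made up 30.9%, all 5 libraries 16.8%, and the trio of WT 1, WT 2 and TPdh 3 9%. A region seen in WT and in no TPdh-/- library was found 3 times in both WT libraries, against 5.92% of all regions, at *Cd27*, *Cd28* and *Tnfrsf1b*.

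**Figure D2:**
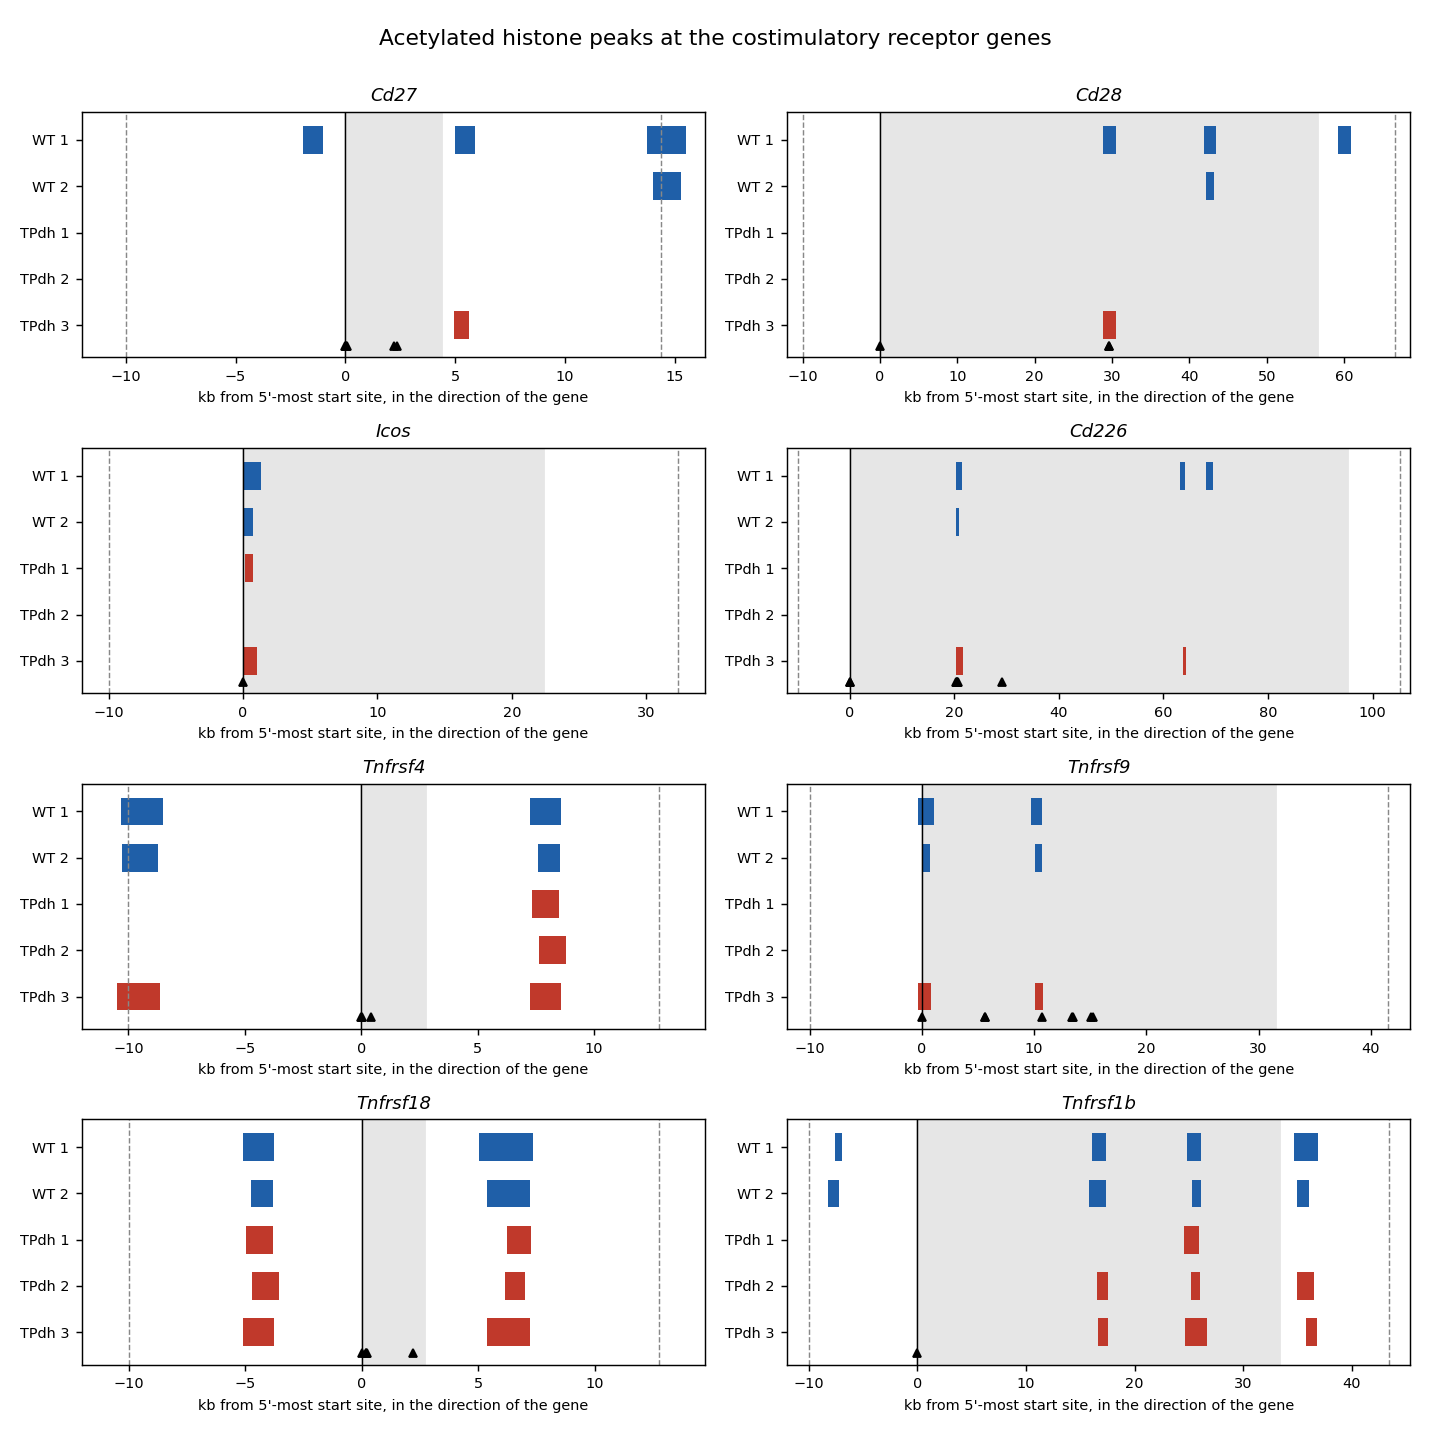
Peaks of each library (bars, WT in blue and TPdh-/- in red) along the 8 receptor genes, in kb from the 5′-most start site in the direction of the gene. The gene body is shaded, triangles are annotated start sites, and dashed lines bound the 10 kb flanks. *Tnfrsf18* has the same 2 peaks in all 5 libraries on either side of the gene, and the body of *Tnfrsf4* has none.

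The sequences at the centre of the 3 regions found in all 5 libraries, and of the *Icos* region found in 4, are shown, the first 3 as the sites of these genes with a peak in every library and the last as the one region within 3 kb of a start site of its gene that was found in 4 libraries. Of the other regions found in 4 libraries, both belong to *Tnfrsf1b*. Each sequence is the middle 300 bases, on the plus strand of GRCm38, of the part that all the peaks of the region had in common. Capitals mark CpG dinucleotides. The first lies at chr4:156021753-156022052 between *Tnfrsf4* and *Tnfrsf18*, in exons of the antisense gene *Gm16008* and of *Gm37090*. The second lies at chr4:156032619-156032918 downstream of *Tnfrsf18*, in no annotated gene. The third lies at chr4:145221130-145221429 in an intron of *Tnfrsf1b*, and the fourth at chr1:60978215-60978514 in the first intron of *Icos*.
Between Tnfrsf4 and Tnfrsf18: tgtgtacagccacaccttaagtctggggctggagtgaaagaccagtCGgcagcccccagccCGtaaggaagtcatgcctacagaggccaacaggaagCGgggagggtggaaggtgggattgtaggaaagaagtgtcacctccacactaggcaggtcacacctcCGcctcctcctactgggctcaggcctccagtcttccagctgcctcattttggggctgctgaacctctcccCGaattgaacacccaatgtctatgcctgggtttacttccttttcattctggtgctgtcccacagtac
Downstream of Tnfrsf18: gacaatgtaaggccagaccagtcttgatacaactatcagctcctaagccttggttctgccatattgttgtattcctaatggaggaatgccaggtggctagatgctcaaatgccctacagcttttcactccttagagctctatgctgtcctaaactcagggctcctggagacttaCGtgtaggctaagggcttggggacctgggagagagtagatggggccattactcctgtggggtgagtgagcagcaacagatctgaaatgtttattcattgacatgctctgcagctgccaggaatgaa
Intron of Tnfrsf1b: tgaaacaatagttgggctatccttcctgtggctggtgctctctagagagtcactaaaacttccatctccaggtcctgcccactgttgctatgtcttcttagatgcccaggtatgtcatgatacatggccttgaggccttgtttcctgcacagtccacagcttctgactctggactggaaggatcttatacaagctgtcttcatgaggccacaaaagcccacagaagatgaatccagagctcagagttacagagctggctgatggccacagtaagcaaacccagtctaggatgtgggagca
Intron of Icos: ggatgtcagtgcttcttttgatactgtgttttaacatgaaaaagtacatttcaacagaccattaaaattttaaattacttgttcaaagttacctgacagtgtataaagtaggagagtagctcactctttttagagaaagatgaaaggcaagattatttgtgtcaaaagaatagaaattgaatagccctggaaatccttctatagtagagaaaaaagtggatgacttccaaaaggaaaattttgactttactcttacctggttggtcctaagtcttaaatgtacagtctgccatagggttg

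The window between *Tnfrsf4* and *Tnfrsf18* held 5 CpG and 56.3% G and C, and the others held 1, 0 and 0 CpG and 48.7%, 49.3% and 33.7% G and C. The central 300 bases of all joined regions had a median of 5 CpG and 50.3% G and C, and 18.6% of them held at most 1 CpG, so 3 of the 4 windows were among the CpG-poor ones. The 4 windows were centred on the part shared by the peaks and those of all regions on the whole region, so their placing differed. Motifs were searched on both strands, TTCNNNGAA (STAT-like, in 9.79% of all regions), TGTGGT (RUNX-like, 21.1%), TGANTCA (AP-1-like, 8.08%) and CCGGAA (ETS-like, 14.5%). None of these letters occurred in the 4 windows, as in 55.2% of all regions.

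Among the immunoglobulin superfamily genes, *Icos*, the inducible receptor for ICOSL that supports helper and effector responses, had 1 region, over its first exon and first intron (chr1:60977942-60979277, the gene at chr1:60977927-61000320, plus strand). The peak was 1336 bp wide in WT 1, 692 bp in WT 2, 601 bp in TPdh 1 and 996 bp in TPdh 3, and no peak was called in TPdh 2. Its fold was 2.42, 2.36, 2.74 and 2.19 in the same order. By −log10 q it ranked 2986th, 4249th, 1218th and 5388th, which placed it above 81.3%, 52.0%, 75.3% and 42.8% of the peaks of each list (its percentile). The percentile in TPdh 1 thus lay between those of the WT libraries, and that in TPdh 3 was below both. Covered length was 1014 ± 455 bp (SD, n = 2) in WT and 532 ± 502 bp (SD, n = 3) in TPdh-/-, which did not separate the genotypes (exact permutation test, two-sided, p = 0.4). With 2 libraries against 3 that test cannot go below 0.2.

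*Cd28*, the receptor for CD80 and CD86 and the main costimulator of naive T cells, had 3 regions and none at its 5′-most start site (gene at chr1:60716800-60773359, plus strand). The first, chr1:60745592-60747336, covered the internal start sites 29558 and 29602 bp into the gene, in WT 1 (1703 bp, fold 1.93, percentile 53.8) and TPdh 3 (1745 bp, fold 1.99, percentile 34.6). The second lay in an intron, at chr1:60758681-60760262, in WT 1 (1582 bp, fold 1.91, percentile 57.5) and WT 2 (984 bp, fold 1.81, percentile 3.48). The peak of WT 2 ranked 8551st of 8859 and was the lowest-ranked of all peaks at the receptor genes. The third, 2578 bp past the gene and near the start of the lincRNA *2310016D23Rik*, was called in WT 1 alone (1676 bp, fold 2.12, percentile 71.3). No region of *Cd28* was therefore shared by the 2 WT libraries and a TPdh-/- library. Covered length was 4961 and 984 bp in WT, against 0, 0 and 1745 bp in TPdh-/-, so TPdh 3 lay between the WT libraries (exact permutation test, two-sided, p = 0.4). *Icos* begins 204567 bp beyond the end of *Cd28*, and the genes shared no peak.

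*Cd226*, the receptor for CD155 and nectin-2 that favours cytotoxicity (DNAM-1), had 3 regions, all inside the gene (chromosome 18, 89176967 to 89272229, plus strand). A cluster of internal start sites 20363 to 20628 bp into the gene carried a peak in WT 1 (1100 bp, fold 2.31, percentile 78.0), WT 2 (626 bp, fold 2.04, percentile 42.5) and TPdh 3 (1195 bp, fold 2.02, percentile 37.3). An intronic region was called in WT 1 (954 bp, percentile 25.3) and TPdh 3 (578 bp, percentile 25.6), and another in WT 1 alone (1289 bp, percentile 24.6). In both libraries with more than 1 peak the start sites thus carried the strongest, and none was called at the 5′-most start site. Covered length was 3343 and 626 bp in WT, against 0, 0 and 1773 bp in TPdh-/-, and the genotypes overlapped (exact permutation test, two-sided, p = 0.4).

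Among the tumour necrosis factor receptor genes, *Tnfrsf4* and *Tnfrsf18* stand 9551 bp apart on chromosome 4, and both carry receptors that rise on activated T cells. *Tnfrsf4* spans chr4:156013843-156016612 and *Tnfrsf18* spans chr4:156026164-156028895, both on the plus strand. The region between them, chr4:156021081-156022613, held the highest-ranked peak of any receptor gene in each of the 5 libraries. It lay 4468 bp past *Tnfrsf4* and 3550 bp before *Tnfrsf18*, so it counted for both genes. The peak was 1325 and 946 bp wide in WT and 1165, 1160 and 1329 bp wide in TPdh-/-. Its −log10 q was 17.1 and 13.0 in WT and 6.66, 4.61 and 12.6 in TPdh-/-. It ranked 235th of 15962 and 86th of 8859 in WT, and 244th of 4920, 1140th of 5419 and 201st of 9418 in TPdh-/-. The percentiles were 98.5 and 99.0 in WT and 95.1, 79.0 and 97.9 in TPdh-/-, so both WT values were above all TPdh-/- values. The mean difference was 8.15 percentile points, with an SD of 0.356 (n = 2) in WT and 10.2 (n = 3) in TPdh-/-, and the exact permutation test gave its smallest two-sided p of 0.2. Among the 3761 protein-coding genes with a peak in all 5 libraries, 28.9% had both WT percentiles above all TPdh-/- percentiles and 1.04% had the reverse, and of the receptor genes with such peaks these 2 genes, through 1 peak, showed the first and 0 the reverse. Its mean percentile of 93.9 placed it 245th of the 3099 regions found in all 5 libraries. Its folds of 2.43, 2.67, 2.70, 2.28 and 2.67 were close to the medians of the lists, 2.40, 2.54, 2.65, 2.58 and 2.48, and by fold it stood at percentiles of 51.9 and 59.9 in WT and 54.2, 19.8 and 63.9 in TPdh-/-. Ranked by fold, TPdh 3 was thus above both WT libraries and the genotypes overlapped.

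**Figure D3:**
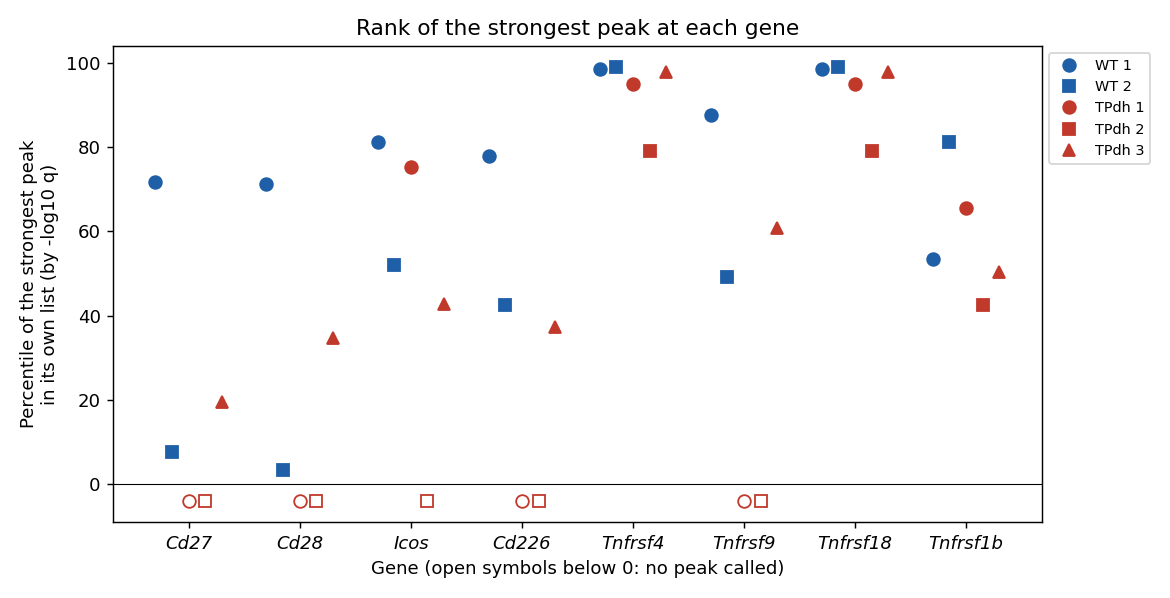
Percentile of the strongest peak of each receptor gene within the list of its own library, by −log10 q (y axis; 100 is the top of the list). Open symbols below 0 stand for no peak called. At *Tnfrsf4* and *Tnfrsf18*, which share 1 peak, the WT libraries reached 98.5 and 99.0 and the lowest TPdh-/- library 79.0.

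*Tnfrsf18*, the receptor for GITRL, also had a region downstream, chr4:156031175-156033527, 2279 bp past the gene, called in all 5 libraries. Its peak covered a start of the antisense gene *Gm16008* in WT 1, WT 2 and TPdh 3, and lay 745 and 680 bp from it in TPdh 1 and TPdh 2. The peak was 2353 and 1845 bp wide in WT and 1026, 827 and 1851 bp wide in TPdh-/-. Its percentiles were 92.0 and 72.9 in WT and 87.0, 74.6 and 82.9 in TPdh-/-, so WT 2 was below all 3 TPdh-/- libraries and WT 1 above them. The covered length of *Tnfrsf18* was 3234 ± 627 bp (SD, n = 2) in WT and 2453 ± 638 bp (SD, n = 3) in TPdh-/- (exact permutation test, two-sided, p = 0.4). *Tnfrsf4*, the receptor for OX40L, had a further region upstream toward *Sdf4*, at chr4:156003360-156005342, in WT 1 (1810 bp, percentile 55.4), WT 2 (1526 bp, percentile 39.7) and TPdh 3 (1846 bp, percentile 42.8). Its covered length was 2825 and 2198 bp in WT, against 1165, 1160 and 2692 bp in TPdh-/-, with TPdh 3 between the WT libraries (exact permutation test, two-sided, p = 0.4).

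*Tnfrsf1b*, the receptor for membrane-bound tumour necrosis factor, had the most regions of the receptor genes, 4, and none at its single start site (gene at chr4:145213463-145246870, minus strand). The region in all 5 libraries lay in an intron with its midpoint 25645 bp into the gene, at chr4:145220161-145222290. Its peak was 1339 and 800 bp wide in WT and 1323, 852 and 2076 bp wide in TPdh-/-, with percentiles of 53.4 and 81.1 in WT and 65.5, 42.5 and 28.3 in TPdh-/-. The TPdh 1 percentile lay between those of WT, and the mean percentile of 54.2 placed the region 2350th of 3099. An intronic region at chr4:145229294-145231061 and one 1241 bp past the gene, at chr4:145210014-145212221, were called in every library but TPdh 1. A region 6899 bp upstream, chr4:145253770-145255075, was called in the WT libraries alone, with percentiles of 23.7 and 13.3. The covered length was 5482 and 4377 bp in WT, against 1323, 3432 and 4030 bp in TPdh-/-, so both WT libraries were above all TPdh-/- libraries. The means were 4930 ± 781 bp (SD, n = 2) and 2928 ± 1420 bp (SD, n = 3), and the exact permutation test gave its smallest two-sided p of 0.2. Taking the 4920 strongest peaks of each list, as many as the shortest list holds, turned this difference to −978 bp and that of *Tnfrsf4* from 839 to −82.5 bp.

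*Tnfrsf9*, the receptor for 4-1BBL on activated CD8+ T cells, had 2 regions (gene at chr4:150914562-150946102, plus strand). The first, chr4:150914180-150915659, lay at its 5′-most start site, which stands beside the start of *Park7*, and was called in WT 1 (1445 bp, fold 2.13, percentile 49.1), WT 2 (710 bp, fold 2.49, percentile 49.2) and TPdh 3 (1233 bp, fold 2.51, percentile 60.8). The second, chr4:150924256-150925354, lay at an internal start site 10744 bp into the gene, with percentiles of 87.6 in WT 1, 32.2 in WT 2 and 41.2 in TPdh 3. TPdh 3 thus ranked above both WT libraries at the first region and between them at the second. Covered length was 2505 and 1280 bp in WT, against 0, 0 and 1967 bp in TPdh-/- (exact permutation test, two-sided, p = 0.4).

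*Cd27*, the receptor for CD70 that supports survival and memory of CD8+ T cells, had 3 regions, none of them over the gene itself (gene at chr6:125232622-125237010, minus strand). A region 577 bp past the gene, chr6:125231109-125232044, covered the start of *Tapbpl* and was called in WT 1 (900 bp, fold 2.47, percentile 71.8) and TPdh 3 (681 bp, percentile 19.5). A region toward *Vamp1* that lay partly outside the 10 kb flank, chr6:125221518-125223260, was called in WT 1 (percentile 28.5) and WT 2 (percentile 7.64). A region upstream of the gene was called in WT 1 alone (919 bp, fold 1.68, percentile 34.9). The peaks counted for *Cd27* in WT 2 and TPdh 3 therefore lay nearest to the starts of other genes. Covered length was 2458 and 363 bp in WT, against 0, 0 and 681 bp in TPdh-/- (exact permutation test, two-sided, p = 0.4).

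**Figure D4:**
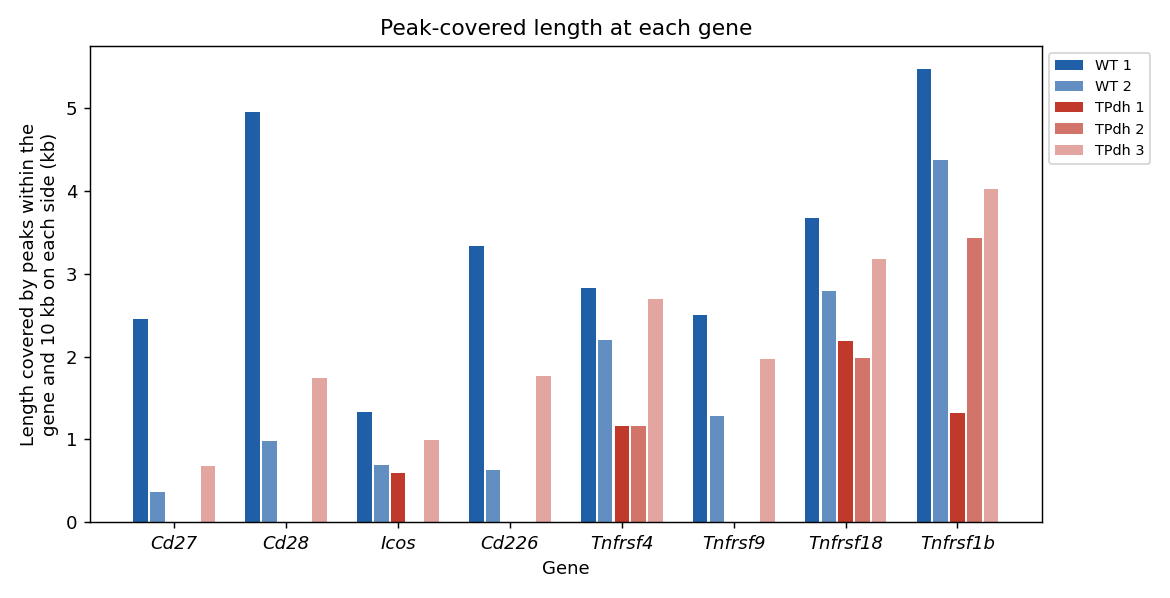
Length covered by peaks in the window of each receptor gene (y axis, kb) in each library (bars; no error bars, since each bar is 1 library). Only at *Tnfrsf1b* did both WT libraries exceed all 3 TPdh-/- libraries, and WT 1 was highest at all 8 genes.

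Set side by side, the mean covered length was higher in WT than in TPdh-/- at 8 of 8 genes. The share of all protein-coding genes with this order is not given here. Their mean covered length was 1116 and 529 bp in WT, against 265, 297 and 602 bp in TPdh-/-. Both WT libraries exceeded all TPdh-/- libraries at 1 of 8 receptor genes, beside 14.6% of protein-coding genes, and the reverse held for 0 of 8, beside 0.0319%. WT 1 was the highest library at 8 of 8 receptor genes, and at 84.6% of the 12312 protein-coding genes with a peak. TPdh 3 exceeded the other TPdh-/- libraries at 8 of 8 genes and WT 2 at 7 of 8, and its mean over all protein-coding genes was also above theirs. The library with the longest list of each genotype was thus the highest of that genotype at every receptor gene, and the part of list length in the difference between genotypes was not tested. The median covered length of the receptor genes was 3084 and 1132 bp in WT, against 300.5, 0 and 1870 bp in TPdh-/-, against 677, 0, 0, 0 and 0 bp over all protein-coding genes. Adjusted over all 21938 genes (Benjamini-Hochberg), no gene had a p below 1, and 0 had an unadjusted p under 0.05. With 2 libraries against 3 the exact permutation test cannot go below 0.2, so that 0 was fixed by the design and says nothing about any gene. With the 4920 strongest peaks of each list, 7 and 5 receptor genes had a peak in WT and 4, 3 and 4 in TPdh-/-, beside 28%, 25.7%, 23.2%, 23.5% and 26.6% of protein-coding genes.

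Peaks within 3 kb of an annotated start site were found at 6 and 3 of the 8 genes in WT 1 and WT 2 and at 1, 0 and 5 in the TPdh-/- libraries, beside 42.1%, 24.8%, 15.3%, 16.5% and 27.9% of protein-coding genes. *Icos* was the 1 gene of TPdh 1. *Tnfrsf4* and *Tnfrsf1b* had no such peak in any library, although both had peaks elsewhere in all 5, and *Tnfrsf18* had one in WT 1 alone. That peak lay past the gene at a start of *Gm16008*, 2807 bp from the nearest start site of *Tnfrsf18*. The *Cd27* peak of TPdh 3 also lay past its gene, over the start of *Tapbpl* and 2632 bp from the nearest start site of *Cd27*.

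Other genes of the pathway were counted in the same windows. Of 11 ligands, 8 and 6 had a peak in WT and 3, 3 and 7 in TPdh-/-, and *Cd70*, *Tnfsf9* and *Tnfsf18*, the ligands of CD27, 4-1BB and GITR, had none in any library. *Icosl*, the ligand of ICOS, was the 1 ligand with a peak in all 5, at percentiles of 64.4 and 58.9 in WT and 18.3, 37.8 and 22.2 in TPdh-/-. Of 20 signal transducers, 20 and 18 had a peak in WT and 11, 14 and 19 in TPdh-/-, and the highest mean percentile among those with a peak in all 5 was that of *Bcl10*, an adaptor of NF-kappa B signalling, at 88.5 and 91.4 in WT and 87.8, 83.8 and 97.0 in TPdh-/-. Of 7 opposing receptors, 6 and 5 had a peak in WT and 4, 6 and 6 in TPdh-/-, with *Cd96*, a competitor of CD226 for CD155, highest at 83.4 and 86.7 in WT and 55.8, 72.2 and 86.6 in TPdh-/-. Of 9 other costimulatory receptors, 7 and 7 had a peak in WT and 4, 1 and 7 in TPdh-/-, with *Tnfrsf14* highest at 70.6 and 68.9 in WT and 55.1, 48.2 and 48.3 in TPdh-/-. Both WT libraries covered more length than all TPdh-/- libraries at 4 ligands, 6 signal transducers, 1 opposing receptor and 4 other costimulatory receptors, and the reverse was found at 0 genes of each list, beside 14.6% and 0.0319% of protein-coding genes. The 4 ligands include *Tnf* and *Lta*, which had the same covered length in every library and so may count the same peaks.

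The likeness of a gene to a receptor gene was measured as the mean absolute difference of the percentiles of their strongest peaks over the 5 libraries, with 0 where no peak was called, among the 47 genes of these lists. The nearest gene to *Tnfrsf4* and *Tnfrsf18* was *Prkcq*, which encodes the protein kinase C of the CD28 pathway, at 6.09 points, with *Bcl10* close behind at 6.15. *Cd27* was nearest to *Nectin2* (4.65 points), *Cd226* to *Lta* and *Tnf*, which had the same percentiles (7.73 for both), *Cd28* to *Siva1* (8.11) and *Tnfrsf1b* to *Tnfrsf14* (9.46). *Siva1* had a peak in WT 1 alone, and the next gene to *Cd28* was *Nectin2* (8.4). *Tnfrsf9* was nearest to *Traf6* (11.7) and *Icos* to *Cd5* (11.8). The 5 libraries are few, and all these genes share the differences in list length.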

How the data were processed

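Histone acetylation ChIP-seq was analysed from 1 deposited broad peak list per library, called separately for each library. Per the submitters' processing notes the tools were FastQC 0.11.9, BWA 0.7.17, SAMtools 1.15.1, MACS2 2.2.6, DiffBind 3.2, ChIPseeker 1.28.3 and R 4.1.0, and no input control is named in the sources used here. The deposited fold is a ratio over the background of the caller, the deposited p-value and q-value are on a −log10 scale, and the deposited score was not used. Windows and places came from the annotation of GRCm38 (GENCODE M21), and sequences from the same assembly. The percentile of a peak is the share of its list that ranks below it by −log10 q, and covered length is the number of bases of a window under peaks. Groups came from the sample labels. Covered length was compared with an exact permutation test over the 10 arrangements of 5 libraries, for every protein-coding gene, with Benjamini-Hochberg adjustment. Percentiles were compared with the same test, without adjustment, only at the receptor genes with a peak in all 5 libraries. The tools were Python 3.11.15 with numpy 2.4.6, scipy 1.17.1 and matplotlib 3.10.9. The window count was checked on simulated lists. All 8 receptor genes were named, and of each list of pathway genes the one with a peak in all 5 libraries and the highest mean percentile, beside the gene nearest to each receptor gene. Members and lists were chosen with earlier results of these data known. Other windows, minimum −log10 q, equal-length lists, joining rules, ranking columns, left-out libraries and a replicate block were tried.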

Additional observations from a re-analysis of the deposited data

How the results depend on the processing

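The WT minus TPdh-/- difference in receptor genes with a peak, 3, ran from 2.333 to 3.667 with other windows, minimum −log10 q or equal-length lists, and from 2 to 4.5 with 1 library left out. The count of genes with more covered length in both WT libraries, 1, was 0 with the gene body alone, with 3 kb flanks and with peaks limited to −log10 q values from 2 or from 5 upward, and ran from 1 to 8 with 1 library left out, reaching 8 without WT 2 or without TPdh 3. With the replicate block, which pairs replicates 1 and 2 and leaves out TPdh 3, that count was 8 and the difference in genes with a peak was 4.5, and the replicate numbers are not stated to pair libraries. The joined regions, 19, were 8 from −log10 q 5 upward and 10 with equal-length lists, and ran from 16 to 19 with 1 library left out. Those found in every library, 3, were 0 from −log10 q 5 upward and ran from 3 to 5, with 5 without TPdh 1. The covered length difference turned with equal-length lists at *Tnfrsf4* (−82.5 bp) and *Tnfrsf1b* (−978 bp). The percentile difference at *Tnfrsf4* and *Tnfrsf18*, 8.15, was 2.32 without TPdh 2 and 11.8 with the replicate block, and at *Tnfrsf1b*, 14.5, it was 0.681 without WT 2. Ranked by fold, with the peak of highest fold taken for each gene, it was 9.93 at *Tnfrsf4*, 1.05 at *Tnfrsf18* and 3.76 at *Tnfrsf1b*, and the genotypes overlapped at all 3 genes. The cause of these changes was not tested. Peak lists hold no reads, so a gene without a peak may still carry acetylation below the threshold of the caller, and the precision of a fold cannot be given.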
